A study of Homo sapiens with 2 samples.

Results

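Aminoacyl-tRNA synthetases are the enzymes that join each amino acid to its transfer RNA, the step that fixes the genetic code before the ribosome is reached. Human cells use a cytosolic set and a separate mitochondrial set, both encoded in the nucleus. AARS1 and AARS2, the cytosolic and mitochondrial alanyl-tRNA synthetases, have also been described as lactyltransferases, enzymes that place lactyl groups on lysines. Genes were chosen by name, with no measured value in the rule, though earlier results of these data were known. The genes examined here were 36 listed synthetase genes of 19862 protein-coding genes. Of these, 20 encode cytosolic enzymes, among them GARS1 and KARS1, which also supply the mitochondrion, and 16 encode mitochondrial enzymes.

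The measurement was ChIP-seq of lactylated lysine 18 of histone H3 (H3K18la), a mark made with lactate, the product of glycolysis, and often found at active promoters. The cells were H1299, an established human non-small cell lung cancer line, with no treatment named in the labels, and formaldehyde-fixed chromatin was taken down with an antibody against H3K18la. The series holds 2 libraries, 1 anti-H3K18la and 1 input with no antibody, and the series' design text names an IgG group where the sample labels name input. The labels give 1 library per group, so differences between genes have no replicate check, no test was run and no value has an error between libraries. The single table is the peak list of the anti-H3K18la library, with 28695 peaks on hg38 (a GRCh38 build), and the read depth behind it is unknown. Its peak names start with NC, a prefix the labels leave unexplained, so that only the labels tie the list to the antibody. For the markers of the cell label, peaks lay at the ends of 3 of 5 epithelial markers (KRT7, and KRT8 with KRT18, but neither CDH1 nor EPCAM), both mesenchymal markers (VIM and ZEB1), 2 of 3 lung markers (NKX2-1 and NAPSA, not SFTPB) and neither blood cell marker (PTPRC and CD3E). Since 59.1% of all protein-coding genes had a peak at an end, these few markers do not check the cell's identity.

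A gene was counted as marked where a peak overlapped, by at least 1 bp, a window of 1000 bp either side of either end. Fold enrichment is the peak caller's ratio of the antibody library to its local background, averaged over the whole peak, and is the authors' own value. Each peak's -log10 q, the caller's significance after correction, is also the authors'. For 30 of the 36 genes a RefSeq promoter table gave the strand and the transcription start. AARS2, LARS1, TARS3, VARS1, VARS2 and YARS1 had no entry there, so their ends are called lower or higher by coordinate. The annotation used here has no exons or introns.

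H3K18la peaks lay at an end of 33 of the 36 synthetase genes (91.7%, exact Clopper-Pearson 95% binomial interval 77.5 to 98.2, which covers counting error only). Among all protein-coding genes the share was 59.1%. All 20 cytosolic genes were marked, and 13 of the 16 mitochondrial genes. The exceptions were PARS2 and LARS2, the mitochondrial prolyl- and leucyl-tRNA synthetase genes, and FARS2, the mitochondrial phenylalanyl-tRNA synthetase gene. PARS2 and LARS2 had no peak in the gene or within 1000 bp of it (2 of 36, against 33.3% of all protein-coding genes), and FARS2 had peaks only inside (1 of 36, against 7.60%). A gene without a listed peak may carry the mark below the caller's threshold.

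The peaks were common but modest in height. The highest peak at an end had a median of 4.87-fold over the 33 marked synthetase genes (quartiles 3.86 and 5.72, range 2.82 to 11.5). Over the 11741 marked protein-coding genes the median was 5.66-fold (quartiles 4.42 and 7.19). Of the 33 genes, 24 lay below that median and 9 above it. A single synthetase gene, YARS1, passed 10-fold, a level reached by 6.32% of all marked genes. Median peak width was 1259 bp against 1421 bp, and median -log10 q was 9.30 against 13.6.

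**Figure D1:**
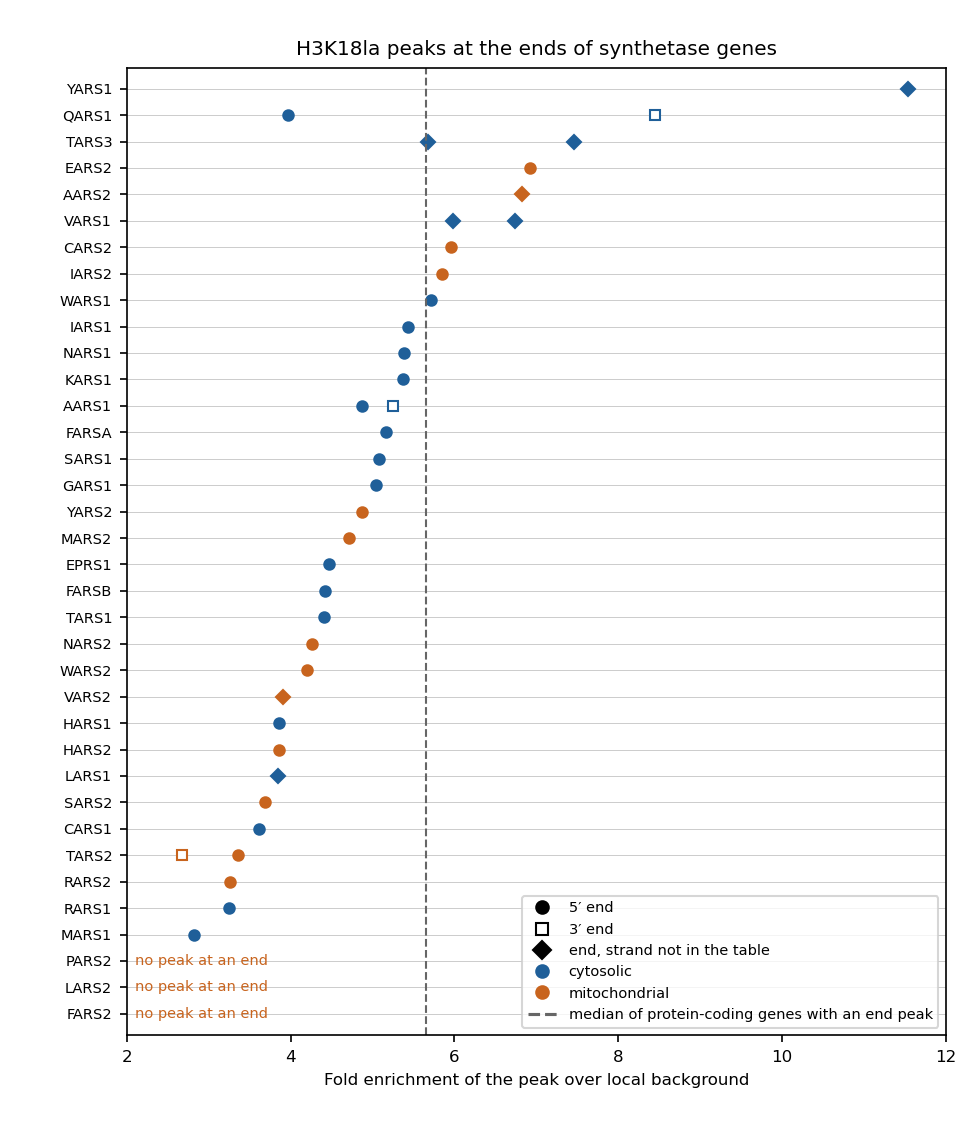
Fold enrichment (x axis) of each listed peak at an end of the 36 synthetase genes (y axis, ordered by their highest end peak) in the 1 anti-H3K18la library. Filled circles are 5′ ends, open squares 3′ ends, diamonds ends of genes whose strand is not in the promoter table, blue is cytosolic and orange mitochondrial, and the dashed line is the 5.66-fold median of marked protein-coding genes. Most points lie left of the line, YARS1 stands alone at 11.5-fold, and 3 mitochondrial genes have no peak at an end.

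The alanyl-tRNA synthetase gene AARS1 (NCBI gene 16, chr16:70252298-70289506, minus strand) had peaks at both ends. The peak at its transcription start had 4.87-fold (chr16:70287694-70289542, -log10 q 9.49), and the peak at its 3′ end had 5.26-fold (chr16:70251074-70251965, -log10 q 9.18). The 3′ peak lay 333 bp outside the gene and also at an end of EXOSC6, an RNA exosome subunit gene. The start peak ran from 36 bp upstream to 1812 bp downstream of the start, so that it covered the beginning of the gene rather than its upstream region. DDX19B, an RNA helicase gene, starts 261 bp away on the opposite strand, and the start peak counted for it as well. AARS2 (NCBI gene 57505, chr6:44298731-44313347) had a single narrow peak of 414 bp at its end of higher coordinate, with 6.83-fold and a -log10 q of 27.9 (chr6:44312952-44313365). That peak was not shared with another protein-coding gene, and AARS2 ranked 3512 among the 11741 marked genes by fold, against 6741 for AARS1. The AARS1 rank rests on its 3′ peak at EXOSC6 and not on its start peak, which had the smaller fold.

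The promoter window of AARS1, from 250 bases before to 50 bases after the start, is printed below as the RefSeq table (GRCh38.p14) gives it, since AARS1 is the better known lactyltransferase and its peak stops short of most of this window. The sequence reads 5′ to 3′ on the gene's own strand (chr16:70289457-70289756, minus), and capitals mark a match to the C/EBP-ATF response element, which is described further on.

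AARS1: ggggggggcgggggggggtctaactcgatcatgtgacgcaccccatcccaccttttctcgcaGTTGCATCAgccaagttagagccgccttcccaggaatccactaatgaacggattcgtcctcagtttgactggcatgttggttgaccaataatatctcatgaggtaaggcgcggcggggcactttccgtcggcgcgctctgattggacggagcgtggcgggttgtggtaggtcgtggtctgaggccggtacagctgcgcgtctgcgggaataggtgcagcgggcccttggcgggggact

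Of the cytosolic enzymes in the list, 7 belong to the multi-synthetase complex, an assembly that holds several synthetases on shared scaffold proteins. All 7 genes were marked, as all 20 cytosolic genes were, against 59.1% of all protein-coding genes. Their fold was mostly low. KARS1 (lysine) and IARS1 (isoleucine) had 5.37-fold and 5.44-fold. EPRS1, whose product charges both glutamate and proline, had 4.46-fold, and QARS1 (glutamine) had 3.96-fold at its start. At the higher-coordinate end of LARS1 (leucine) the peak reached 3.85-fold, and RARS1 (arginine) had 3.24-fold. MARS1, the methionyl-tRNA synthetase gene that serves initiation and elongation, had the lowest value of the 33 marked genes, 2.82-fold over 320 bp (-log10 q 3.90), and 0.971% of marked protein-coding genes lay below it. In EPRS1, RARS1 and MARS1 the peak did not reach the start itself. The EPRS1 peak of 378 bp ended 334 bp upstream of it, while those of RARS1 and MARS1 began 47 bp and 26 bp downstream.

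The other cytosolic genes ranged more widely. YARS1, the tyrosyl-tRNA synthetase gene (NCBI gene 8565), had the highest value of the 33, with a peak of 2614 bp and 11.5-fold where its coordinates end (chr1:32816225-32818838, -log10 q 46.1). This peak also lay at S100PBP, and YARS1 ranked 329 among all marked genes. VARS1 (valine) had peaks at both ends, of 6.74-fold, shared with LSM2, and of 5.98-fold, shared with VWA7. TARS3, a second cytosolic threonyl-tRNA synthetase gene, had 7.46-fold outside its end of lower coordinate in a peak also at TM2D3, and 5.68-fold at its other end. WARS1 (tryptophan) had 5.72-fold, NARS1 (asparagine) 5.38-fold, FARSA and FARSB, the subunits of the cytosolic phenylalanine enzyme, 5.17-fold and 4.43-fold, SARS1 (serine) 5.07-fold and GARS1 (glycine) 5.04-fold. TARS1 (threonine) had 4.40-fold, HARS1 (histidine) 3.86-fold and CARS1 (cysteine) 3.61-fold. The paralogues TARS1 and TARS3 thus both carried a peak.

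Among mitochondrial genes, EARS2 (glutamate) was highest at 6.92-fold, in a peak also at UBFD1, followed by AARS2. CARS2 (cysteine) had 5.96-fold and IARS2 (isoleucine) 5.85-fold. YARS2 (tyrosine) had 4.87-fold, MARS2 (methionine) 4.71-fold, NARS2 (asparagine) 4.26-fold and WARS2 (tryptophan) 4.20-fold. The lowest were VARS2 (valine, 3.91-fold, also at GTF2H4), HARS2 (histidine, 3.86-fold), SARS2 (serine, 3.69-fold), TARS2 (threonine, 3.36-fold) and RARS2 (arginine, 3.26-fold). The median over the 13 marked mitochondrial genes was 4.26-fold, and over the 20 cytosolic genes 5.12-fold. At the most 5′ RefSeq starts, which leave out 3′ peaks and genes with no entry, the medians were 4.67-fold over 16 cytosolic genes and 4.47-fold over 12 mitochondrial genes. Of 15 pairings of a cytosolic with a mitochondrial gene for the same amino acid, 11 had a peak at a start of both. In 5 of these the cytosolic gene was higher, in 5 the mitochondrial gene, and HARS1 and HARS2 share 1 peak. FARS2 counts on both sides, since at 4.67-fold it was paired with FARSA (5.17-fold) and with FARSB (4.43-fold). The pairings left out EPRS1 with EARS2 or PARS2, and TARS3 with TARS2. At their starts EPRS1 had 4.46-fold and EARS2 6.92-fold, so that pairing would have added to the mitochondrial side.

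Most genes with a promoter entry had a peak at their start. A peak lay within 1000 bp of a RefSeq start in 28 of the 30 genes with an entry (93.3%), against 62.1% of 15842 protein-coding genes. A start lay inside a peak in 23 of the 30, against 53.3%. Fold enrichment at the most 5′ start ran from 2.82 to 6.92 with a median of 4.57, compared with 5.59 over 9549 protein-coding genes. The peak midpoint lay at a median of 74 bp downstream of the start (quartiles -119 and 287), close to the 90 bp of all genes (-123 and 332). Besides EPRS1, RARS1 and MARS1, the peaks of NARS2 and CARS2 missed the start, beginning 85 bp and 429 bp downstream of the most 5′ one.

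**Figure D2:**
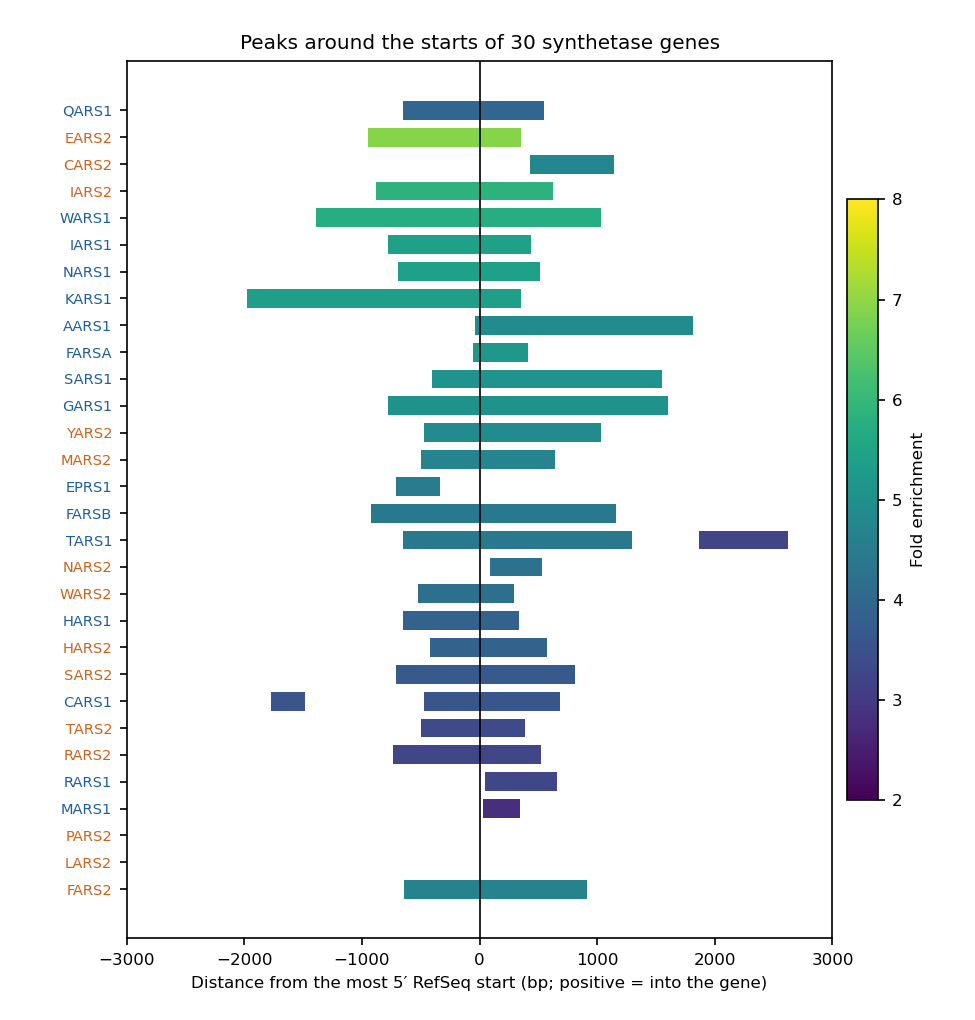
Peaks within 3000 bp of the most 5′ RefSeq start of the 30 synthetase genes with a promoter entry, in the 1 anti-H3K18la library. Bars span each peak (x axis, bp from the start, positive into the gene), colour gives fold enrichment, and gene names are blue for cytosolic and orange for mitochondrial enzymes. Peaks straddle the start in most genes, that of EPRS1 lies upstream only, those of RARS1, MARS1, NARS2 and CARS2 lie downstream only, and PARS2 and LARS2 have none.

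Peaks at the 3′ end were rare. They were found in 3 of the 30 genes, namely AARS1, QARS1 and TARS2, against 7.62% of protein-coding genes. All 3 also lay at an end of another gene (exact 95% interval 29.2 to 100%), as did 61.8% of the 3′ end peaks of all protein-coding genes. The QARS1 peak of 8.44-fold (chr3:49092792-49095243) lay 689 bp beyond the gene, at QRICH1, against 3.96-fold at the start. The TARS2 peak of 2.67-fold lay at ECM1. Both ends were marked in 5 of the 36 genes (AARS1, QARS1, TARS2, TARS3 and VARS1), against 5.96% of all protein-coding genes.

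Many synthetase genes share an end peak with a neighbour. Of the 33 genes with an end peak, 15 had their highest one in common with another protein-coding gene end, or 45.5% against 32.9% of all marked genes. In 9 of the 10 genes with a shared 5′ peak the neighbour ran head to head with the synthetase gene. These were AARS1 with DDX19B, CARS2 with ING1, EARS2 with UBFD1, KARS1 with TERF2IP, RARS2 with the replication origin gene ORC3, SARS2 with the mitochondrial ribosomal protein gene MRPS12, WARS1 with WDR25, and HARS1 with HARS2. For CARS2 the shared peak lay at the outer boundary of its gene entry and not at its listed starts, whose own peak was not shared. In the remaining gene, MARS1, the neighbour was ARHGAP9, whose strand was not in the table. A shared peak cannot be assigned to either gene. Median fold was 4.36 for the 10 shared and 4.46 for the 17 unshared 5′ peaks.

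The closest pair were HARS1 and HARS2, the cytosolic and mitochondrial histidyl-tRNA synthetase genes, which diverge from starts 85 bp apart on chromosome 5. A single peak of 989 bp and 3.86-fold (-log10 q 4.84) covered both starts, running from 655 bp upstream to 333 bp downstream of the HARS1 start. The window of HARS1 (chr5:140691321-140691620, minus, RefSeq GRCh38.p14) holds both starts and is shown for that reason beside that of PARS2 (chr1:54764474-54764773, minus), which had no peak. Capitals mark matches to the ETS motif on either strand.

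HARS1: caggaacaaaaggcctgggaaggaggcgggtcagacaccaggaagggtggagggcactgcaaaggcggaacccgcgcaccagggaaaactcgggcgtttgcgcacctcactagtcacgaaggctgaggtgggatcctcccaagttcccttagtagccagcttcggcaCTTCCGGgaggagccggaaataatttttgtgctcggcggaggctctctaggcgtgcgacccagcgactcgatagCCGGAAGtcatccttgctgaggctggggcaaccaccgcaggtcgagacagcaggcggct
PARS2: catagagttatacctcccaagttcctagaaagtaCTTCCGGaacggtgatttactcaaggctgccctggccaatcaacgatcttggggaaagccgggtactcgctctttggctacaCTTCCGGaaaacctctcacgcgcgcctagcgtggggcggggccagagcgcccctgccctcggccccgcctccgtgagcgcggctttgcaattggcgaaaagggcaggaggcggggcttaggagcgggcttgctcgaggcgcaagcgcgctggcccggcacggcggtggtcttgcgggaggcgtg

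The unmarked genes were not poor in CpG. CpG-rich promoters are the usual kind at housekeeping genes, and the ratio of observed to expected CpG in the 300 bp window measures it. PARS2 had a ratio of 0.948 and LARS2 of 0.944, with 64% and 63% of bases G or C. The median ratio was 0.868 over the 30 synthetase genes, 0.857 over protein-coding genes with a peak within 1000 bp of the most 5′ start and 0.343 over those without. LARS2 (chr3:45388576-45549407) had its nearest listed peak 1458 bp past its 3′ end, of 4.94-fold, just outside the 1000 bp window. End peaks that lay wholly outside the gene but inside that limit were those 3′ of TARS2, AARS1 and QARS1, the TARS3 peak at TM2D3 and the upstream peak of EPRS1, at gaps of 477, 333, 689, 533 and 334 bp.

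FARS2 and CARS2 show where gene boundaries and starts part. The RefSeq gene entry of FARS2 begins at 5249934 on chromosome 6, but its listed starts lie 11073 bp and 11579 bp further in. A peak of 4.67-fold (chr6:5260362-5261916, -log10 q 12.3) covered both, and it also lay at an end of LYRM4, an iron-sulfur cluster assembly gene. Counted by its starts, FARS2 was marked like the others. FARS2 spans 521650 bp and held 4 more peaks, of 2.98-fold to 5.95-fold, the highest in the body being taller than the peak at its start. CARS2 had 5.96-fold at its outer boundary, at ING1, and 4.75-fold near its listed starts, which lie 7007 bp and 7406 bp inside.

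Peaks in the body away from both ends were found in 13 of the 36 genes, 18 peaks in all, against 24.8% of all protein-coding genes with any. These 18 include the peaks at the listed starts of FARS2 and CARS2. The highest was a FARS2 peak of 5.95-fold, followed by TARS3 (5.64-fold), another FARS2 peak (5.60-fold) and NARS2 (5.13-fold, above the 4.26-fold of its own start).

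The local background implied by a peak's fold and significance differed among the genes. It was solved from each peak's fold and -log10 p under a Poisson model, in scaled reads, and had a median of 5.58 over all peaks (quartiles 4.72 and 6.78). Of the 33 marked genes, 12 had their highest end peak above the upper quartile of all peaks. The matching share over all marked protein-coding genes was not counted, so the 12 does not set the synthetase genes apart. Over highest end peaks, the median background was 5.86 for the synthetase genes and 6.16 for all marked protein-coding genes. SARS2 had a background of 11.3, YARS2 10.8, MARS1 9.56 and AARS2 9.0, while EPRS1 had 4.40. YARS2 at 4.87-fold had a -log10 q of 17.4, compared with 5.61 for EPRS1 at 4.46-fold. Because the background is derived from fold and significance, it restates such differences and does not explain them.

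Several cytosolic synthetase genes are textbook targets of ATF4, the transcription factor of the amino acid stress response, which binds the C/EBP-ATF response element. The letters TGATGNAAN, searched on both strands, were found in the promoter windows of 8 of the 30 genes (26.7%), against 3.60% of 15842 protein-coding genes. They were AARS1, CARS1, GARS1, IARS1, MARS1, NARS1, TARS1 and YARS2, of which only YARS2 is mitochondrial. Of a list of 12 known ATF4-responsive synthetase genes all 12 were marked, against 59.1% of all protein-coding genes. All 12 are cytosolic, and all 20 cytosolic genes were marked, so this count does not set them apart. Of the 10 with a promoter entry, 7 held the letters. The matches are printed with 20 bases either side, on the strand of the gene, because they are the sequence feature most often shared among the cytosolic genes relative to other promoters. Capitals mark the match, and positions count from 0 at the start. For GARS1 and TARS1 this is the second listed start, 143 bp and 269 bp downstream of the most 5′ one.

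AARS1 (chr16:70289666-70289714, minus, from -188): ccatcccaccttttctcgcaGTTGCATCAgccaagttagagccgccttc
CARS1 (chr11:3057398-3057446, minus, from -3): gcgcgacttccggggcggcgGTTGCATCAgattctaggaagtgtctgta
GARS1 (chr7:30594824-30594872, plus, from -34): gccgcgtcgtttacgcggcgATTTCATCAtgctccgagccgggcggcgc
IARS1 (chr9:92293683-92293731, minus, from -14): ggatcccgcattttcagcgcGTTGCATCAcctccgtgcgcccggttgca
MARS1 (chr12:57488043-57488091, plus, from -5): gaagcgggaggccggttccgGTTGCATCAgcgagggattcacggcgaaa
NARS1 (chr18:57621794-57621842, minus, from 14): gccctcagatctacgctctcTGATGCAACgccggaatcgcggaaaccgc
TARS1 (chr5:33440946-33440994, plus, from 1): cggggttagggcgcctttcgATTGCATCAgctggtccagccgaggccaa
YARS2 (chr12:32756066-32756114, minus, from -197): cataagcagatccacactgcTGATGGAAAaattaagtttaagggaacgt

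The match lay inside a listed peak in 6 of the 8 genes. In AARS1 and MARS1 it lay upstream of the peak. Median fold at the start was 4.87 for the 8 genes and 4.44 for the 20 other genes with a start peak. A match is a description of letters and does not show that a factor binds there.

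Of the other motifs searched on both strands, the ETS letters CCGGAAG were found in 16 of the 30 genes (53.3%), against 16.5% of protein-coding genes. The YY1 letters AANATGGCG were found in 6 (20%), against 5.59%. The CCAAT box (CCAAT) was found in 16 (53.3%), against 42.1%, and the E-box CACGTG in 4 (13.3%), against 10.9%. The NRF1 letters GCGCATGCG were found in MARS2 only, against 3.11% of genes, and the cAMP response element TGACGTCA in none, against 3.0%. No match overlapped one of another motif. The HARS1 and HARS2 windows share bases, so matches there count for both genes.

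**Figure D3:**
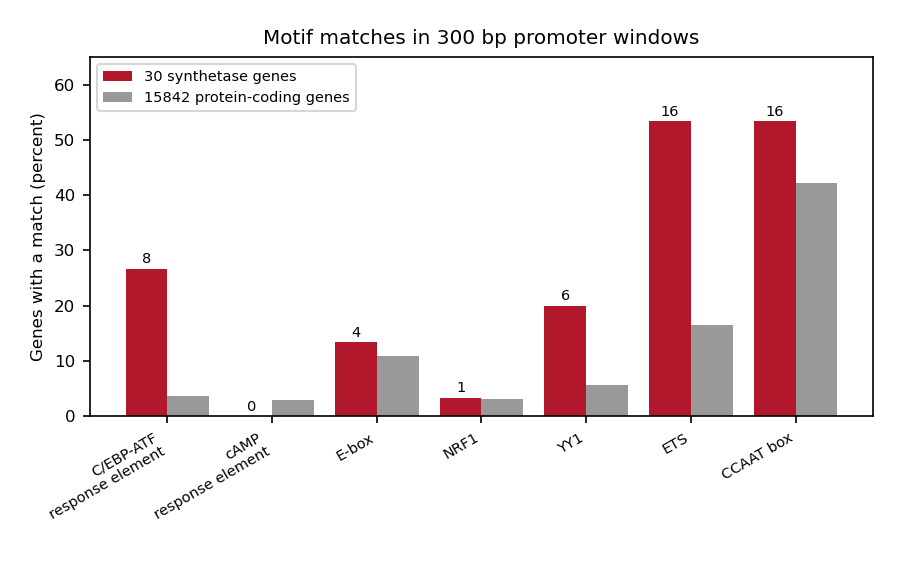
Share of genes (y axis, percent) with at least 1 match to each motif in a 300 bp promoter window, for 30 synthetase genes (red, number of genes above the bar) and 15842 protein-coding genes (grey). The C/EBP-ATF, ETS and YY1 motifs stand higher in the synthetase genes (26.7%, 53.3% and 20% against 3.60%, 16.5% and 5.59%), and the others lie nearer to the background.

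Other gene families of translation gave a yardstick for height. Genes drawn by symbol were marked at an end in 46 of 56 cases for translation initiation factors, 83 of 86 for cytosolic ribosomal proteins (paralogues included) and 70 of 77 for mitochondrial ribosomal proteins. Among all protein-coding genes the share was 59.1%. Every symbol of EIF followed by a digit was taken as an initiation factor, which includes the kinase gene EIF2AK4. In the order named, the median folds were 6.35, 5.49 and 4.71. The synthetase genes, at 4.87, stood nearest to the mitochondrial ribosomal protein genes. No test of these differences was made.

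**Figure D4:**
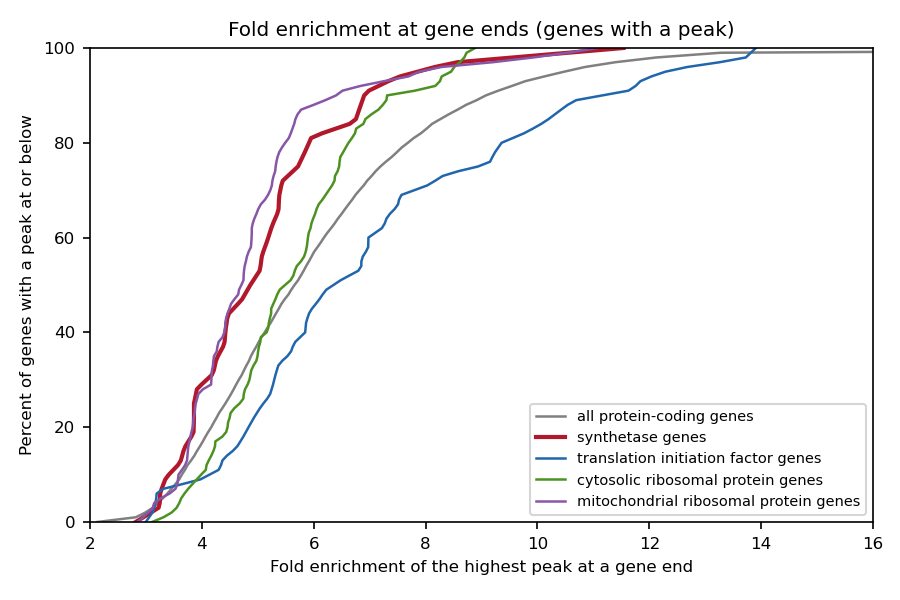
Cumulative percent of genes (y axis) by fold enrichment of the highest peak at a gene end (x axis, shown from 2 to 16), for genes with such a peak in the 1 anti-H3K18la library. The red synthetase curve (median 4.87) runs beside that of mitochondrial ribosomal protein genes (4.71) and left of all protein-coding genes (5.66) and translation initiation factor genes (6.35).

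Genes that work with the synthetases were also read. Of 18 partner genes (scaffolds, amidotransferase subunits, selenocysteine and formylation enzymes, editing and hydrolase enzymes, and the factors that carry charged tRNA to the ribosome), 17 had a peak at an end, against 59.1% of all protein-coding genes, with a median of 4.64-fold. The difference from the synthetase genes was not tested. The highest were EEF1A2 (9.90-fold) and EEF1A1 (8.28-fold), which encode the elongation factor that delivers charged tRNA, the D-aminoacyl-tRNA deacylase gene DTD1 (9.55-fold) and AARSD1, a relative of the alanyl-tRNA editing domain (7.90-fold). The complex scaffold gene AIMP1 had 4.51-fold, in a peak also at TBCK, and EEF1E1 2.92-fold. GATB, a subunit of the enzyme that makes mitochondrial glutaminyl-tRNA, had no peak.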

How the data were processed

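ChIP-seq peaks of 1 anti-H3K18la library of H1299 cells were analysed. The input library served no comparison and is not analysed here. Per the submitters' processing notes, the tools were bcl2fastq 2.17, cutadapt 1.18, Trimmomatic 0.38, Bowtie2 2.3.4.1, Picard, MACS2 (2.1.2 and 2.1.0) and ChIPseeker, with hg38. Their settings and the control of the peak calls are not given in the sources used here. The deposited list gives, for each peak, a fold enrichment (a ratio), a -log10 p, a -log10 q and a score, equal in 99.98% of peaks to -log10 q multiplied by 10 and rounded down. The largest q was 0.0472. The list gives no read totals, so depth is unknown.

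Peaks were compared with RefSeq gene and promoter tables (GRCh38.p14) in Python 3.11.15 with pandas 2.3.3, numpy 2.4.6 and scipy 1.17.1. All 36 symbols matched the gene table and 30 the promoter table. Genes on alternate or unlocalised sequences were left out. The highest peak by fold in a window was taken as the gene's peak. Overlap and background code was tested on simulated data, where 200 of 200 planted genes were found and 500 of 500 genes equalled a brute-force overlap. Members and lists were chosen with earlier results of these data known. Every synthetase gene is named, with up to 4 of the highest and 4 unmarked genes of each related list and the neighbours sharing a peak. AIMP1 and EEF1E1 were named outside that rule, after their values were seen. With 1 library no test was possible. Alternatives were other windows, overlap rules, thresholds, 5′ ends only, shared peaks left out and genes without near neighbours.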

Additional observations from a re-analysis of the deposited data

How the results depend on the processing

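The count of 33 marked synthetase genes of 36 moved little with a window of 500 bp or with the peak midpoint required in the window (33 each), and was 34 with 3000 bp, which added LARS2 (4.94-fold) and left 1 gene with no peak. With peaks under a -log10 q of 5 removed it was 26 (72.2%, against 52.4% of protein-coding genes), with 9 genes having no peak, and the genes that lost their end peak were CARS1, HARS1, HARS2, MARS1, RARS1, RARS2 and TARS2. Among peaks at or above the median fold of the list it fell to 21 (58.3%, against 45.0% of protein-coding genes), with 6 mitochondrial genes, 3 marked in the body only and 12 with no peak. Where the peak had to cover 50% of the window the count was 22 (against 40.2% of protein-coding genes), with 8 mitochondrial genes. Another 12 genes had a listed peak in the gene or within 1000 bp of it, but none meeting this rule at an end. Many of these had only an end peak that covered too little of the window, and no body peak. Without peaks shared with another gene's end it was 20 (55.6%, against 41.0%), with 13 cytosolic and 7 mitochondrial genes, 6 marked in the body only and 10 with no peak. Among genes with no other coding end within 5000 bp it was 11 of 14, 8 of 8 cytosolic and 3 of 6 mitochondrial, against 4750 of 9966 protein-coding genes (47.7%), a smaller set by construction. With 5′ ends alone it was 27 of 30.

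The median fold over marked synthetase genes ranged from 4.40 to 5.38 over these alternatives, within the binomial interval of the median, 4.20 to 5.38. It stayed under the median over marked protein-coding genes in each. Single values moved for QARS1 (8.44 to 3.96), TARS3 (7.46 to 5.68) and AARS1 (5.26 to 4.87), where the peak outside a 3′ or lower end no longer counted. No paired analysis was possible because each group has 1 library. Depth limits what an unmarked gene means, and fold carries no replicate error.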

Other observations

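Genes that answer a shortage of amino acids, or import amino acids, had higher median folds than the 4.87 of the synthetase genes. In a list of 12 genes of the amino acid stress response, 10 had a peak at an end, against 59.1% of all protein-coding genes, with a median of 7.08-fold. ATF4, its transcription factor, had 9.59-fold in a peak also at MIEF1, the stress sensor gene SESN2 8.55-fold, and GCN1 8.27-fold in a peak also at RPLP0. EIF2AK4, the kinase gene whose product senses uncharged tRNA, had 7.5-fold. ASNS, the asparagine synthetase gene, had no peak at the ends of its gene entry but 3.59-fold within 1000 bp of a RefSeq start, and ATF3 had only peaks inside, of up to 9.25-fold.

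All 8 amino acid transporter genes in a second list had a peak at an end, against the same 59.1%, with a median of 7.92-fold. The glutamine and neutral amino acid transporter genes SLC38A2, SLC1A4 and SLC1A5 had 10.2-fold, 8.70-fold and 8.01-fold, and the cationic transporter gene SLC7A1 had 9.24-fold. Fold at an end ranged from 4.38 to 9.59 over the marked stress response genes and from 3.81 to 10.2 over the transporter genes. Both ranges began below the synthetase median of 4.87. These lists hold few genes, share 1 library and were not tested against the synthetase genes.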
